A study of Mus musculus with 8 samples.

Results

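The mouse microRNA families miR-466, miR-467, miR-669 and miR-297 were followed in bone marrow macrophages, most of them as hairpins of 1 intron of the gene Sfmbt2. Members were the rows of the 2 deposited tables whose names begin with one of the 4 family numbers, together with the row spelled Mir4660. They made up 41 of 823 rows, 18 of 452 in the first table and 23 of 371 in the second. The labels and series title do not mention these families.

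Small RNA had been profiled to find microRNAs that change with the inflammatory cytokine TNF or that depend on RBP-J, a DNA-binding protein that carries Notch signals to target genes. The cells were bone marrow macrophages, grown for 3 days from marrow cells with CMG14-12 supernatant as a source of the growth factor M-CSF (20 ng/ml equivalent). All mice had a mixed C57BL/6 and 129 background, over 90% C57BL/6, and no age was used here. The WT group had no further allele named in the labels. The RBP-J KO group is labelled Rbpjf/f; LysM Cre, in which Cre is driven from the lysozyme M locus of myeloid cells, so deletion of Rbpj is limited to cells that express that locus and need not reach every cell. Rbpj itself is no microRNA, and its deletion was not measured in these libraries. Each genotype was left without stimulation or given TNF for 24 h, which gave 4 groups of 2 libraries. The labels do not say whether the 2 libraries of a group came from different animals or cultures, so each p-value reflects the spread among these libraries alone, and that spread may be technical. In bulk RNA, fewer cells of a type and less RNA per cell cannot be told apart.

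Each table held 1 library of each group. The first gave mature arms in CPM (reads scaled to a common total of microRNA reads), and the second gave hairpin genes in values read as RPKM (corrected for the length of the hairpin and the reads of the library). CPM libraries held 321327 to 848650 reads, and RPKM libraries about 13574998 to 21713054, of which 6647101 to 12701931 fell on listed hairpins. The shallowest CPM library was that of unstimulated WT, where 1 read was worth 3.11 CPM, against 1.18 CPM for RBP-J KO with TNF. Myeloid markers (miR-142a and miR-223, 2 of 3 listed) summed to 11492 to 18837 CPM and to 119165 to 183048 RPKM over the 4 groups, and both were present in all libraries. The 3 lymphoid markers summed to 15715 to 23753 CPM. The tables differ in unit and feature, so every ratio was taken within a table.

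Sfmbt2 encodes a Polycomb group protein and is imprinted, being expressed from the paternal copy in extraembryonic tissue of the mouse. One of its introns carries a large, rodent-specific array of microRNA hairpins that grew by repeated local duplication, and the array is best known from the placenta. Its members resemble each other closely and hold runs of alternating UG and CA bases, so short reads can fit several of them. The hairpins are cut from the intron's transcript, and each mature strand pairs with targets through its seed, bases 2 to 8.

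RefSeq (GRCm38.p6) mature sequences of 8 microRNAs of these families were available, 3 of them from listed members. They are shown because their repetitive letters bear on how reads could be assigned. None of the 8 lies on chromosome 2, where Sfmbt2 is. They therefore do not give the letters or seeds of the hairpins in its intron. The seed is in capitals, and the strand is 5′ to 3′.
miR-669n: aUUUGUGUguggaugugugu
miR-467f: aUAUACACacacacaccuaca
miR-466i-3p: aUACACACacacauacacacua
miR-466k: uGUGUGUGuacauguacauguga
miR-467h: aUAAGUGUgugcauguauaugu
The 8 sequences had 8 different seeds. The first 3 belong to members in the tables, although of miR-466i only the 5p arm was listed, and the last 2 are relatives not listed in them. Steps of UG, GU, CA or AC made up a median of 69.9% of the steps between neighbouring bases in the 8 sequences, with a range of 50% to 78.9%, against 28.6% over all 1738 mature sequences of the table. miR-669n lies on chromosome 3 at 115979905 to 115979924 on the plus strand, miR-467f on chromosome 11 at 69635419 to 69635439 on the minus strand, and miR-466i-3p on chromosome 13 at 17747552 to 17747573 on the plus strand. The miR-669n hairpin, with its mature strand in capitals, has that strand in its 5′ arm.
Mir669n: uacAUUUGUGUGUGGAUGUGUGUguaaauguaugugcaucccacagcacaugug

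In the annotation GENCODE M21 (GRCm38), Sfmbt2 spans chromosome 2 from 10370510 to 10595253 on the plus strand. Of 81 annotated hairpins of the 4 families, 71 lay within the gene, and 20 of these were listed in the RPKM table. Of the 23 RPKM rows, 22 had a position and 20 of those fell in intron 11 of transcript Sfmbt2-205. The 2 others were Mir669n on chromosome 3 and Mir467f on chromosome 11, and the row Mir467a-1 had no GENCODE M21 entry. The row Mir4660 carried an Ensembl identifier that GENCODE names Mir466o, at 10472540 to 10472623 within Sfmbt2, so it belongs to the miR-466 family. The listed hairpins in the intron spanned 50.8 kb.

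Neighbouring hairpins of the intron differed widely in level in the RPKM table. In the RPKM table, 5 rows that reached 100 reads in a library (Mir467d, Mir467c, Mir669c, Mir669o and Mir467e) held 94.3% of all member reads. Of 19 pairs of neighbours among the listed hairpins, 7 lay 191 to 216 bases apart. Mir467e averaged 72.8 RPKM over the 4 libraries, and Mir466p, 198 bases downstream, averaged 0.67. Mir467d averaged 260.6 RPKM and Mir466, 203 bases away, 1.13. Mir669o averaged 77.8 RPKM and Mir466g, 199 bases away, 0.91. In that table abundant hairpins thus stood beside hairpins near 1 read. The CPM table had the opposite order for 1 of these pairs, with miR-466p-3p at a mean of 13.4 CPM and miR-467e-5p at 3.22. The row of miR-466p-3p shares its values with other rows. miR-466g averaged 8.98 CPM, and miR-669o had no row there. How reads that match several hairpins were assigned is not given in the labels or files, and its part in these levels was not tested.

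**Figure D1:**
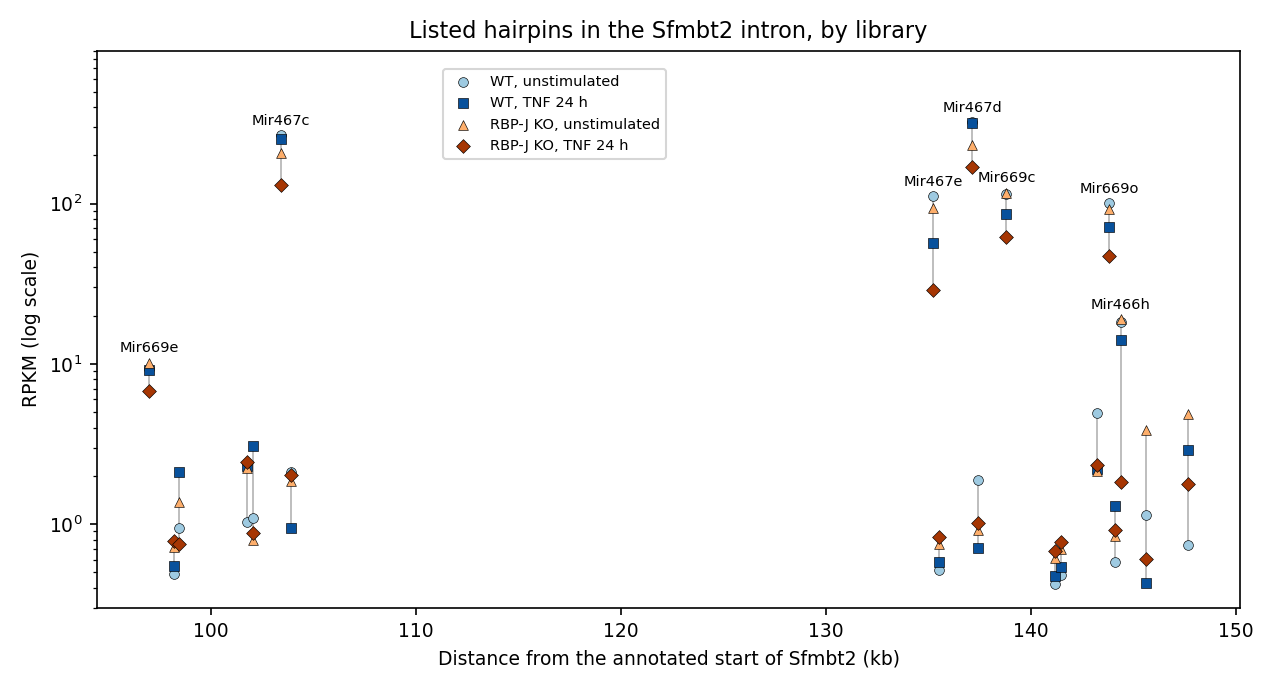
Level of each of the 20 listed hairpins in the Sfmbt2 intron (RPKM, log scale) against distance from the annotated start of the gene in kb, with 1 point per library and a line from its lowest to highest library. Mir467d (169 to 322.9 RPKM) and Mir467c (130 to 267) stand highest, and neighbours of the labelled hairpins sit near 1 RPKM.

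The miR-467 hairpins led the RPKM table's members. Mir467d (chromosome 2, 10507630 to 10507714) had 322.9 RPKM in unstimulated WT, 318 in WT with TNF, 233 in unstimulated RBP-J KO and 169 in RBP-J KO with TNF, from 596, 522, 295 and 195 reads. Its mean ranked 128 of 371 rows. Mir467c (10473931 to 10474027) had 267, 253, 208 and 130 RPKM in the same order, from 562, 475, 300 and 171 reads. For both hairpins the 2 WT libraries were the highest and the RBP-J KO library with TNF the lowest. Mir467e (10505721 to 10505807) had 111, 57.1, 94.2 and 28.8 RPKM, from 210, 96, 122 and 34 reads, so each TNF library was below both unstimulated libraries. The same per-sample values are drawn in the plot of the members by library.

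Of the miR-669 hairpins, Mir669c (10509296 to 10509404) had 115, 85.9, 117 and 61.5 RPKM, from 271, 181, 190 and 91 reads. Mir669o (10514300 to 10514395), which has no row in the CPM table, had 100.3, 71.1, 93.0 and 46.8 RPKM, from 209, 132, 133 and 61 reads. In both, the unstimulated libraries were the higher ones in each genotype. Mir669e (10467495 to 10467613), at 9.29, 9.12, 10.2 and 6.81 RPKM, was lowest in RBP-J KO with TNF as well, on 11 reads against 18 to 24. Of the miR-466 hairpins, Mir466h (10514891 to 10514971) was the only one with a mean of at least 5 RPKM. It had 18.2, 14.0, 19.1 and 1.82 RPKM, from 32, 22, 23 and 2 reads. The RBP-J KO library with TNF stood apart from the other 3, and its value rests on 2 reads.

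The remaining 16 rows of the RPKM table averaged under 5. Of the 23 rows, 14 stayed under 10 reads in every library, 4 of them (Mir466p, Mir466f-2, Mir466d and Mir297b) at 1 read in all 4. The table holds no zero and its values stop at 1 read, so these 4 rows carry no comparison. Mir466n reached 10 reads in unstimulated WT and 4, 3 and 3 in the other libraries. Mir4660 had 2, 5, 1 and 1 reads. The 2 miR-297 rows, Mir297a-5 and Mir297b, totalled 3, 5, 4 and 4 reads. By family, miR-467 took 69.8% of the member reads of this table, miR-669 27.1%, miR-466 2.78% and miR-297 0.312%.

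In the CPM table the order of the families differed. The miR-466 rows took 48.6% of the member reads, miR-467 33.5% and miR-669 17.9%, with rows of identical values counted once, and no miR-297 row was listed. The 18 rows held 13 distinct sets of values, since 8 rows shared all values with another. miR-466b-3p, miR-466c-3p, miR-466e-3p and miR-466p-3p each had 18.7, 14.2, 11.3 and 9.43 CPM in the order above, from 6, 8, 4 and 8 reads. The row miR-466a-3p, close to these at 6, 7, 4 and 6 reads, was counted beside them. Whether the same reads enter both is not known. Likewise miR-669a-5p and miR-669p-5p each had 15.6, 10.7, 8.5 and 9.43 CPM, from 5, 6, 3 and 8 reads, and miR-467a-5p and miR-467b-5p each had 0, 5.34, 0 and 3.54 CPM. Rows that share every value cannot be told apart as separate microRNAs.

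The highest member was miR-467c-5p, with 59.1 CPM in unstimulated WT, 7.11 in WT with TNF, 2.83 in unstimulated RBP-J KO and 8.25 in RBP-J KO with TNF, from 19, 4, 1 and 7 reads. It ranked 225 of 452 rows by mean. miR-466a-3p had 18.7, 12.4, 11.3 and 7.07 CPM, miR-466g 15.6, 10.7, 8.5 and 1.18, and miR-466d-3p 12.4, 5.34, 2.83 and 1.18. miR-467d-5p had 12.4, 1.78, 5.66 and 9.43 CPM, from 4, 1, 2 and 8 reads. In these 5 rows unstimulated WT was the highest library, and only miR-467c-5p reached 19 reads.

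The scarcer rows rest on 0 to 4 reads per library. miR-466h-5p had 12.4, 5.34, 0 and 1.18 CPM, miR-467e-5p 9.34, 0, 0 and 3.54, and miR-669c-5p 6.22, 0, 2.83 and 2.36. miR-669l-5p had 6.22, 0, 2.83 and 1.18 CPM. miR-466i-5p was seen in unstimulated RBP-J KO alone, at 8.5 CPM from 3 reads. A count of 0 in these libraries allows up to 3 reads, so no ratio of reads is given against it.

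**Figure D2:**
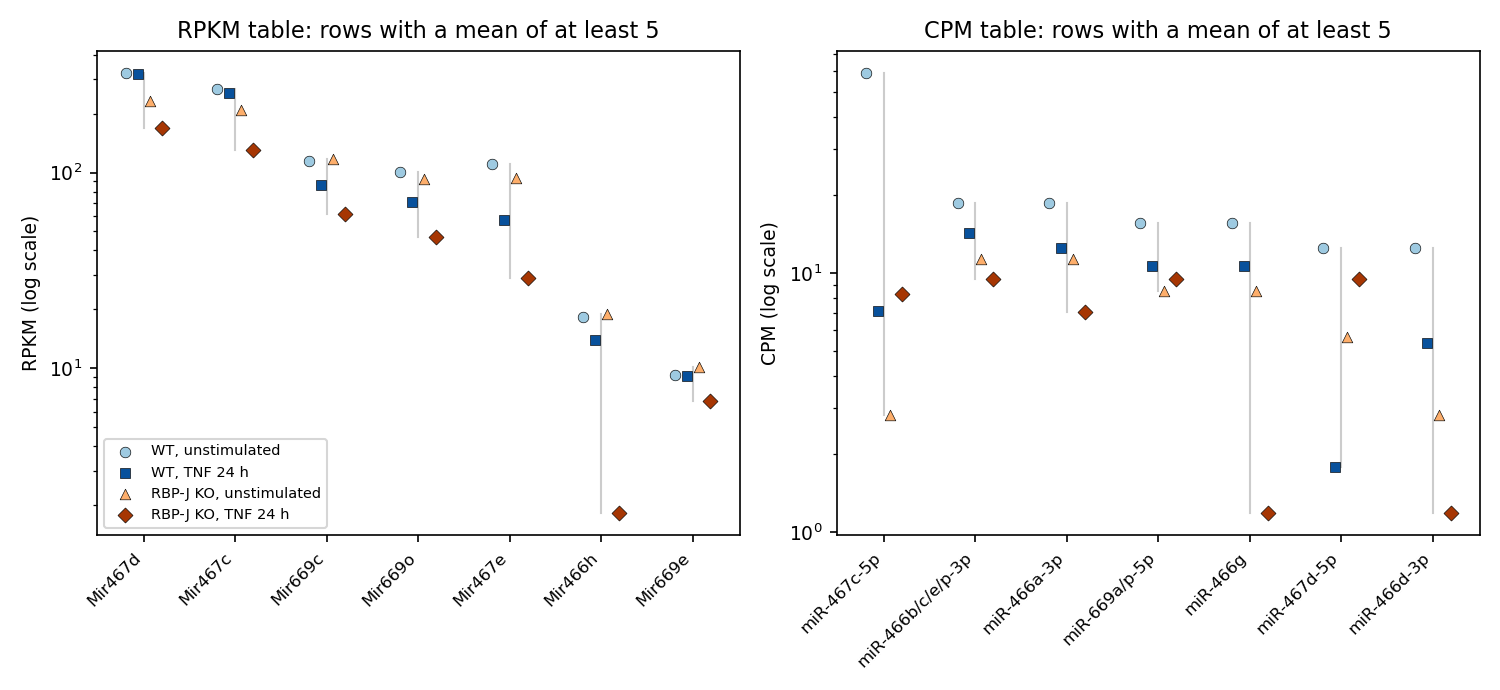
Level of the members with a mean of at least 5, by library, in RPKM (left, 7 hairpins) and CPM (right, 7 distinct sets of values), both on a log scale, where each symbol is 1 library and the line spans its lowest to highest library. In the RPKM panel RBP-J KO with TNF is lowest for every hairpin; in the CPM panel unstimulated WT is highest for every row.

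All 11 member rows of the CPM table with a mean of at least 5 were highest in unstimulated WT, where 48.7% of the table's rows with such a mean peaked. The 11 rows hold 7 distinct sets of values. Of these, miR-466d-3p reached a mean of 5 only through unstimulated WT, so its peak in that library gives no support. Among all CPM rows with a mean under 20, 119 of 232 (51.3%) were highest in that library. Of all rows, 50 exceeded 5 CPM in unstimulated WT alone, against 9 in RBP-J KO with TNF alone, none of these a member. Of the 50, 3 were members: miR-467e-5p, miR-669c-5p and miR-669l-5p. A row was listed only where 1 library exceeded 5 CPM, and 2 reads suffice for this in either unstimulated library, against 3 in WT with TNF and 5 in RBP-J KO with TNF. Marker sums of 3 other cell types also ran highest in that library: epithelial markers summed to 349, 97.8, 207 and 97.8 CPM, stromal markers (2 of 4 listed) to 90.2, 21.3, 70.8 and 42.4, and erythroid markers (2 of 4 listed) to 6570, 1995, 2631 and 2522. The lymphoid and myeloid sums were highest in unstimulated RBP-J KO, at 23753 and 18837 CPM against 21757 and 15747 in unstimulated WT. Their part in the member values was not tested.

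In the RPKM table all 7 rows with a mean of at least 5 were lowest in RBP-J KO with TNF, where 23.9% of 230 rows were. Scarcer member rows had their lowest value in other libraries too, such as Mir669h in unstimulated WT, at 2 reads. Of the 7, 4 were highest in unstimulated WT, where 9.57% of rows were, and 3 in unstimulated RBP-J KO, where 14.8% were. None was highest in WT with TNF, the group in which 47.8% of the table's rows peaked. The markers moved otherwise: stromal markers summed to 17151, 53208, 3583 and 11761 RPKM, and epithelial markers to 524, 1277, 459 and 761, both highest in WT with TNF. Lymphoid markers summed to 23615 to 29638 RPKM and erythroid markers (3 of 4 listed) to 1036 to 2184.

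Pooled over members, members took a lower share of listed microRNA reads with TNF in both genotypes of the RPKM table. Member reads were 179 per 1000000 listed reads in unstimulated WT (95% Wilson interval 171 to 187, which covers counting error only), 117 in WT with TNF (111 to 123), 168 in unstimulated RBP-J KO (159 to 179) and 81.5 in RBP-J KO with TNF (75.1 to 88.3). The ratio of TNF to unstimulated was 0.654 in WT (95% exact counting interval 0.611 to 0.6998) and 0.484 in RBP-J KO (0.437 to 0.535). The ratio of RBP-J KO to WT was 0.942 without stimulation (0.874 to 1.01) and 0.696 with TNF (0.632 to 0.767). These are comparisons of single libraries, and no replicate of the same unit stands behind them.

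In the CPM table the pooled share, in the same unit, was 187 in unstimulated WT (145 to 240), 72.9 in WT with TNF (53.8 to 98.9), 65.1 in unstimulated RBP-J KO (43.4 to 97.8) and 57.8 in RBP-J KO with TNF (43.7 to 76.3). TNF over unstimulated gave 0.391 in WT (0.256 to 0.591) and 0.887 in RBP-J KO (0.530 to 1.53). RBP-J KO over WT gave 0.349 without stimulation (0.206 to 0.573) and 0.792 with TNF (0.512 to 1.23). Both tables thus held a lower share with TNF in WT, while the tables parted on the unstimulated knockout, at 0.349 for CPM and 0.942 for RPKM. Per library total, the RPKM ratio was 0.859 for TNF in WT (0.802 to 0.9195) and 0.841 for the unstimulated knockout (0.7805 to 0.9055). The CPM rows miR-467e-5p, miR-669c-5p and miR-669l-5p were listed only through unstimulated WT. miR-466h-5p and miR-466d-3p were listed only through WT libraries. The other way, miR-467a-5p and miR-467b-5p were listed only through WT with TNF, and miR-466i-5p only through unstimulated RBP-J KO. For TNF in the knockout, the CPM interval includes 1 and the RPKM interval does not.

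**Figure D3:**
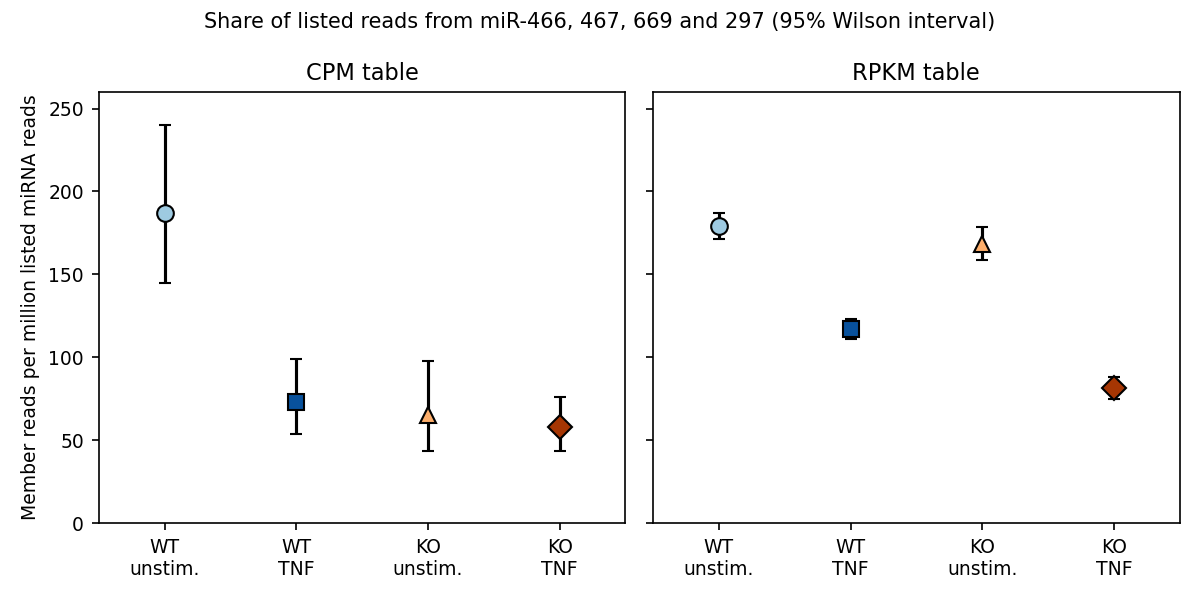
Share of members among listed microRNA reads (reads per 1000000) in each library of the CPM table (left, identical rows counted once) and the RPKM table (right), where bars are 95% Wilson intervals of counting error. Unstimulated WT is highest in both tables, at 187 and 179, and unstimulated RBP-J KO is near it in the RPKM table only (168 against 65.1).

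Within the RPKM table the TNF ratio differed between hairpins. Mir467e had a TNF ratio per listed reads of 0.391 in WT (0.303 to 0.4996) and 0.257 in RBP-J KO (0.170 to 0.378). The ratios of Mir467d were 0.748 (0.664 to 0.843) and 0.609 (0.505 to 0.732), and those of Mir467c 0.722 (0.638 to 0.817) and 0.525 (0.432 to 0.636). In WT the interval of Mir467e does not meet those of Mir467d and Mir467c, although the 3 share a family and a gene. Mir669c was at 0.571 (0.470 to 0.691) and 0.441 (0.340 to 0.569), and Mir669o at 0.540 (0.431 to 0.674) and 0.422 (0.307 to 0.576). Scaled to the library total instead, the WT ratios were 0.983 for Mir467d (0.873 to 1.11) and 0.949 for Mir467c (0.838 to 1.07), both intervals including 1. On that scale Mir467e was at 0.513 (0.399 to 0.656), Mir669c at 0.750 (0.618 to 0.908) and Mir669o at 0.709 (0.566 to 0.886) in WT. In RBP-J KO, Mir467d was at 0.725 (0.602 to 0.872) and Mir467c at 0.625 (0.515 to 0.757).

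The knockout ratio per listed reads was lower for the miR-467 than for the miR-669 rows of the RPKM table without stimulation, when rows were pooled. Mir467d was at 0.808 of WT without stimulation (0.7005 to 0.931) and at 0.657 with TNF (0.555 to 0.776). The miR-467 rows together were at 0.859 (0.783 to 0.940) and 0.645 (0.574 to 0.724). The miR-669 rows were at 1.13 (0.984 to 1.29) and 0.862 (0.714 to 1.04), with both intervals including 1. The pooled intervals of the miR-467 and miR-669 rows did not meet without stimulation, and overlapped with TNF. By hairpin the families overlapped without stimulation: Mir467c was at 0.872 (0.755 to 1.00) and Mir467e at 0.949 (0.752 to 1.19), against 1.15 for Mir669c (0.946 to 1.38) and 1.04 for Mir669o (0.830 to 1.30). Mir466h was at 1.17 (0.656 to 2.07) and 0.160 (0.0182 to 0.651), the latter on 2 against 22 reads. Scaled to the library total, the intervals with TNF lay below 1 for Mir669c (0.716, 0.551 to 0.927) and Mir669o (0.658, 0.478 to 0.898). In the CPM table the miR-467 rows had 26, 8, 3 and 21 reads, a knockout ratio of 0.105 without stimulation (0.0203 to 0.343) and 1.74 with TNF (0.740 to 4.54). The miR-669 rows of that table were at 0.505 without stimulation (0.133 to 1.68), an interval that overlaps that of miR-467.

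The test over both tables was limma on log2(value + 1), with the table as a block and Benjamini-Hochberg adjustment over the 184 microRNA numbers present in both tables with a mean of at least 5. Arms or hairpin copies of a number were summed. Of 30 member numbers, 11 were in both tables and 7 were tested (miR-466h, miR-466p, miR-467c, miR-467d, miR-467e, miR-669a and miR-669c). Of the 7, miR-467e and miR-669c exceeded 5 CPM in unstimulated WT alone, so they were listed and tested only through that library. Their CPM values in the other groups were therefore bound to be lower. miR-466h exceeded 5 CPM in WT libraries alone. Its row was thus listed only through WT, and its lower CPM values in the knockout give no support. miR-466p had 1 read in every RPKM library, so its RPKM ratios come from library totals alone. No member passed an adjusted p of 0.05 in any of 7 comparisons. In all 184 numbers, 0.0% passed for TNF in WT, TNF in RBP-J KO, the knockout without stimulation, the knockout with TNF, the interaction and TNF averaged over genotypes, and 0.543% (1 number, not a member) for the knockout averaged over treatments. At an unadjusted p under 0.05 these comparisons held 12, 16, 5, 4, 0, 26 and 14 numbers. On recovered reads edgeR called 0, 1, 0, 0, 0, 3 and 1 numbers and DESeq2 called 0, 4, 0, 0, 0, 7 and 2, again with no member among them.

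For TNF in WT, all 7 fitted members lay below 0, with a median log2 fold change of -1.15 against -0.08 over all 184. For miR-467e and miR-669c the CPM part of this direction was set by the listing limit. For miR-466p the RPKM part carries no comparison. The fitted values were -2.16 ± 1.07 (moderated SE, 2 libraries a group) for miR-467e, -1.63 ± 0.90 for miR-669c, -1.48 ± 0.98 for miR-467c and -1.15 ± 0.91 for miR-467d. The lowest adjusted p of a member by limma was 0.642. The other 3 lay at -0.72 ± 1.06 (miR-466h), -0.59 ± 0.79 (miR-669a) and -0.16 ± 0.79 (miR-466p). Without the CPM library of unstimulated WT the members' median was -0.40 against 0.23 over all 184, and without the RPKM library of WT with TNF it was -2.01 against -0.49. miR-467c was at -0.13 without the CPM library of unstimulated WT and at -2.83 without the RPKM one. Without the CPM library of WT with TNF, miR-467d was at -0.02, miR-669c at -0.61 and miR-467e at -1.35, and without the RPKM one at -2.28, -2.66 and -2.97.

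Taken table by table, 6 of the 7 members were lower with TNF in WT in both tables, where 16.8% of the 184 numbers were, and none was higher in both, where 24.5% were. Among the 6, the lower CPM values of miR-467e and miR-669c followed from the listing limit and give no support. miR-467e had log2 ratios of -3.37 (CPM) and -0.95 (RPKM), miR-669c -2.85 and -0.41, miR-467c -2.89 and -0.08, and miR-467d -2.27 and -0.02. The median over all tested was -0.62 for CPM and 0.38 for RPKM. miR-467e was at least 2-fold lower than that median in both tables on the log2(value + 1) scale, as were 3.26% of the 184 numbers. The CPM ratios of miR-467e and miR-669c set 0 reads with TNF against 3 and 2 reads without, no more than a count of 0 allows, so they depend on the pseudocount and measure no fold.

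TNF in the knockout gave no common direction. In the RPKM table, log2 ratios were -2.83 for miR-466h, -1.68 for miR-467e, -0.92 for miR-669c, -0.67 for miR-467c and -0.46 for miR-467d. In the CPM table the same members had 1.12, 2.18, -0.19, 1.27 and 0.65. One of 7 members (miR-669c) was lower in both tables, where 25.5% of numbers were, and 1 (miR-669a) higher in both, where 21.2% were. miR-669a had 3 reads in both RPKM libraries of the knockout, so its sign there comes from library totals. The CPM ratios of miR-466h and miR-467e here start from 0 reads in the unstimulated knockout, against 1 and 3 reads with TNF, and depend on the pseudocount. The lowest adjusted p of a member by limma was 0.940. This comparison shares its libraries with the comparisons of genotype.

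For the knockout without stimulation all 7 fitted members were again below 0, with a median of -0.74 against -0.23 over all 184. The limits given for miR-467e, miR-669c and miR-466h (CPM listing) and miR-466p (RPKM reads) hold here too. miR-467c had the largest fitted difference, -2.17 ± 0.98 on the log2 scale (limma adjusted p = 0.833), followed by miR-466h at -1.84 ± 1.06 and miR-467e at -1.80 ± 1.07. The values of miR-466h and miR-467e depend on the pseudocount, since their CPM rows had 4 and 3 reads in WT and 0 in the knockout. With edgeR and DESeq2 on reads, miR-466h was at -0.73 and -0.82 and miR-467e at -0.85 and -0.96. Leaving out 1 library moved miR-467c from -3.52 (without the RPKM library of unstimulated WT) to -0.82 (without the CPM library of that group). It moved miR-466h from -3.65 to -0.03 and miR-467e from -3.09 to -0.52, without the RPKM and the CPM library of the unstimulated knockout. In the CPM table miR-467c had 19 reads in WT and 1 in the knockout, a ratio of 0.0479 (0.00115 to 0.301), and in the RPKM table it had 562 and 300 reads, a ratio of 0.872 (0.755 to 1.00). Of the 7 members, 4 were lower in both tables, where 39.7% of numbers were, and none was higher in both, where 20.1% were. This comparison uses the unstimulated WT libraries, as does TNF in WT. Without the CPM library of unstimulated WT the members' median was -0.37 and that of all 184 numbers 0.19, and without the CPM library of the unstimulated knockout they were -0.41 and -0.41.

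With TNF, 1 of 7 members (miR-466h) was lower in the knockout in both tables, where 38.0% of numbers were, and none was higher in both, where 20.1% were. Its log2 ratios were -1.54 (CPM, 3 reads against 1) and -2.42 (RPKM, 22 against 2). It was at least 2-fold lower than the table median in both tables, as were 3.8% of the 184 numbers. Its CPM row exceeded 5 CPM in WT libraries alone (12.45 and 5.34, against 0 and 1.18 in the knockout). That row was thus listed only through WT, and its lower CPM value in the knockout gives no support. miR-467e was at 2.18 for CPM and -0.96 for RPKM, and miR-467d at 1.91 and -0.91. The listing limit of miR-466h holds too for the knockout averaged over treatments. miR-466h was also the only member with an unadjusted p under 0.05, for the knockout averaged over treatments, at -1.91 ± 0.75 on the log2 scale (limma, unadjusted p = 0.028, adjusted p = 0.468). Of the 184 numbers, 6.52% were lower there at that unadjusted level. miR-466h did not pass it with edgeR, with DESeq2 or without the replicate block, nor without the CPM library of unstimulated WT, unstimulated RBP-J KO or WT with TNF, or the RPKM library of RBP-J KO with TNF. Its fitted value ran from -2.81 without the RPKM library of the unstimulated knockout to -1.01 without the CPM library of that group.

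**Figure D4:**
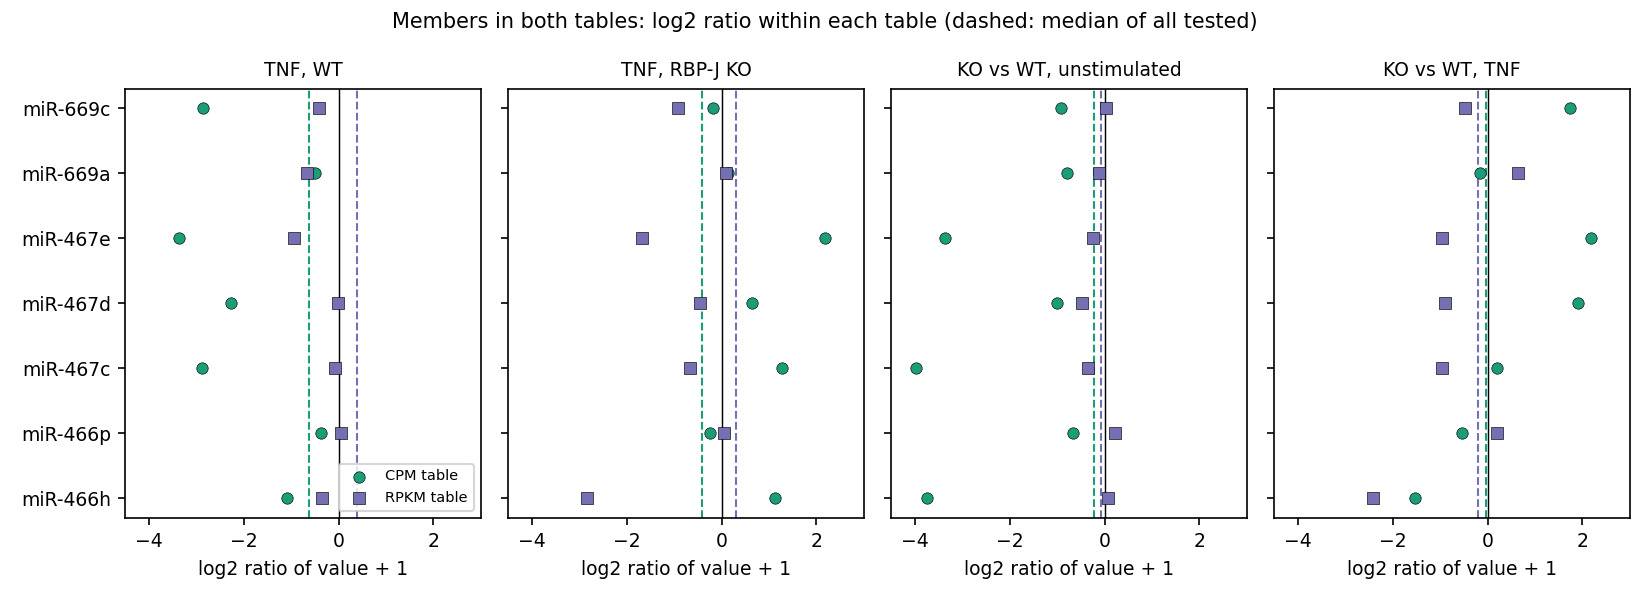
Log2 ratio of value + 1 for the 7 members present in both tables, in the CPM table (circles) and the RPKM table (squares), with 1 panel per comparison and the median of all 184 tested numbers as dashed lines. In the TNF, WT panel most members lie left of 0 in both tables, whereas in the TNF, RBP-J KO panel the miR-467 members lie on opposite sides of 0 in the 2 tables. The CPM rows of miR-467e and miR-669c were listed only through unstimulated WT, and that of miR-466h only through WT libraries.

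Deposited rows with a mean of at least 5 in their table were also counted by fold within that table. They include rows of the members tested over both tables, so these counts repeat values given above. Of 11 CPM member rows with a mean of at least 5, 3 (miR-467c-5p, miR-467d-5p and miR-466d-3p) were at least 2-fold lower with TNF in WT, where 39.3% of rows were, and the same 3 in the unstimulated knockout, where 30.5% were. No member row of that table was 2-fold higher in either comparison, where 13.5% and 12.0% of rows were. For TNF in the knockout, 1 row (miR-466g) was 2-fold lower, against 27.3% of rows, and 1 (miR-467c-5p) higher, against 13.5%. For the knockout with TNF, 2 rows (miR-466d-3p and miR-466g) were 2-fold lower, against 14.7% of rows, and 1 (miR-467d-5p) higher, against 10.3%. miR-466d-3p, at 12.45, 5.34, 2.83 and 1.18 CPM, reached a mean of 5 only through unstimulated WT. It exceeded 5 CPM in WT libraries alone, so its place among the lower rows gives no support. In the RPKM table, 2 of 7 rows (Mir466h and Mir467e) were at least 2-fold lower with TNF in the knockout, where 6.52% of rows were, and 1 (Mir466h) in the knockout with TNF, where 16.5% were. For TNF in WT and for the unstimulated knockout none was 2-fold lower, where 2.17% and 13.5% of rows were. No RPKM member row was 2-fold higher in any of the 4 comparisons, where 14.3% (TNF in WT), 20.0% (TNF in RBP-J KO), 4.78% (unstimulated knockout) and 3.91% (knockout with TNF) of rows were. The median log2 ratio of the 7 RPKM rows for TNF was -0.35 in WT and -0.92 in RBP-J KO, against 0.44 and 0.30 over all 230 rows.

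The imprinted Dlk1-Dio3 cluster, another large microRNA array, was set beside the members as a list of 50 numbers. The CPM table listed 1 of them. The RPKM table listed 31, of which 5 had a mean of at least 5. All 5 were at least 2-fold higher with TNF in WT, with a median log2 ratio of 1.88, where 14.3% of the table's rows were. All 5 were at least 2-fold lower in the knockout with TNF, with a median of -2.02, where 16.5% of rows were. None passed 2-fold for TNF in the knockout (median -0.37) or the unstimulated knockout (0.29). The comparisons in which all 5 passed share 1 library, WT with TNF, which has no replicate of the same unit. The 31 listed numbers summed to 298 RPKM there, against 97.7 in unstimulated WT, 128 in unstimulated RBP-J KO and 98.7 in RBP-J KO with TNF. The stromal marker sum of that table moved alike, from 17151 to 53208 RPKM with TNF in WT and to 11761 in the knockout with TNF, and its part was not tested. The 7 members had medians of -0.35 and -0.91 for TNF in WT and the knockout with TNF in that table. The difference between the arrays was not tested.

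The RefSeq promoter window of Sfmbt2, the host gene whose transcript carries the hairpins, is shown because the 7 RPKM hairpins with a mean of at least 5 shared their lowest library. The CPM member rows did not: miR-467d-5p was lowest in WT with TNF and miR-467c-5p in unstimulated RBP-J KO. A common cause was not tested. The letters of the window run from chr2:10370201-10370500 (GRCm38.p6, plus strand), with the match to the NF-kB pattern, GGGA and CC with any 4 bases between them, in capitals.
Sfmbt2 promoter: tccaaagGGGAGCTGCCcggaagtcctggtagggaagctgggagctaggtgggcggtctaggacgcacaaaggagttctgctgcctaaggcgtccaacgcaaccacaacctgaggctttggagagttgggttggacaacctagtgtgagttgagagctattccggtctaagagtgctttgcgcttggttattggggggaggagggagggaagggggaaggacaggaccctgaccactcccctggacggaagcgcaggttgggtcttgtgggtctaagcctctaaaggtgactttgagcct
That pattern, searched on both strands, was found once on the forward strand, and 20.7% of 32851 promoter windows of this length hold it. The RBP-J core TGGGAA had no match on either strand of this window, and 25.6% of windows hold it. The second Sfmbt2 window of the table had no match to either pattern on either strand. A match is a run of letters and not a binding site, and Sfmbt2 transcript levels were not measured here.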

How the data were processed

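Small RNA libraries were prepared with the Illumina TruSeq small RNA kit, per the labels' protocols. CASAVA 1.8.2 was used per the submitters' processing notes; the aligner, counter, genome build and handling of multiply mapping reads are not given in the sources used here. Of the 2 deposited tables, the first holds CPM of mature arms, per the file headers, and 100% of its low values were whole reads at a tolerance of 0.1 reads. The second deposited table carries no unit name and was read as RPKM of hairpin genes: with GENCODE M21 lengths, known for 363 of 371 rows, 94.7% to 95.3% of low values were whole reads. Columns name the group and no replicate number, while sample titles and tables do, so replicate 1 is the CPM library and replicate 2 the RPKM library. Number and unit cannot be told apart, and the labels tie no number to an animal or culture.

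Arms and hairpin copies were summed to numbers (329 and 350, with 197 in both). The main test was limma 3.58.1 (R 4.3.3, eBayes with trend, two-sided, Benjamini-Hochberg at 0.05) on log2(value + 1) over the 184 numbers with a mean of at least 5, with the table as a block; fold changes are on that scale, where those of low members depend on the pseudocount. edgeR 4.0.16 and DESeq2 1.42.0 were run on recovered reads as alternatives. Recovered reads also gave the counting intervals, which cover counting error only. The fits were also run on simulated data with large TNF changes set in both genotypes. That run does not show whether changes of the members' size would be found.

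Named were members in both tables, the 6 highest of each table and those past 2-fold in 1 direction in both tables relative to the median; other members are given by counts and ranges, and those named beyond the rule were chosen after their values were seen. Members and lists were chosen with earlier results of these data known.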

Additional observations from a re-analysis of the deposited data

Results flagged for a closer look

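miR-669a was singled out because its deposited values were lower with TNF in WT in both tables and higher in RBP-J KO in both. With TNF in WT its log2 ratios were -0.50 (CPM) and -0.68 (RPKM), and with TNF in the knockout 0.13 (CPM) and 0.09 (RPKM). The interaction fitted by limma was 0.70 ± 1.11 on the log2 scale, with an adjusted p of 0.988. The values rest on 5, 6, 3 and 8 reads in the CPM table, where miR-669p-5p has the same values, and on 5, 2, 3 and 3 reads of Mir669a-3 in the RPKM table, in the order unstimulated WT, WT with TNF, unstimulated RBP-J KO and RBP-J KO with TNF. The knockout libraries of the RPKM table both hold 3 reads, so the sign of 0.09 comes from the library totals alone. Per listed reads, the ratio of TNF to unstimulated was 0.921 there (95% exact counting interval 0.123 to 6.88), which is the opposite direction, so these reads do not show a different response in the knockout.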

How the results depend on the processing

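No member was called at an adjusted p of 0.05 under any setting. Counts over all 184 numbers moved as follows. With edgeR, TNF in RBP-J KO gave 1 call and TNF averaged 3; with DESeq2 these gave 4 and 7, and the knockout averaged gave 2. Without the replicate block (no replicate block), the knockout averaged gave 0 calls against 1, and no other call changed. Leaving out 1 library gave 0 to 16 calls for TNF in WT, 0 to 5 for the unstimulated knockout, 0 to 2 for the interaction, 0 to 23 for TNF averaged and 0 to 4 for the knockout averaged, each highest without the RPKM library of unstimulated WT (4 calls for the knockout averaged also without the CPM library of WT with TNF). It gave 0 to 7 for TNF in RBP-J KO, with 6 or 7 when any 1 WT library was left out, and 0 for the knockout with TNF. Without the RPKM library of WT with TNF, TNF in WT gave 7 and TNF averaged 9.

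Counts of members past 2-fold, in the order TNF in WT, TNF in RBP-J KO, unstimulated knockout and knockout with TNF, depended on the filter. Without a filter, lower CPM rows numbered 7, 2, 5 and 3, higher CPM rows 2, 5, 1 and 4, lower RPKM rows 0, 4, 0 and 2, and higher RPKM rows 1, 0, 2 and 0. At a mean of at least 20 no CPM member row was left, so those counts were 0, and lower RPKM rows numbered 1 for TNF in RBP-J KO and 0 for the knockout with TNF. Median-of-ratios scaling gave 2 higher CPM rows for TNF in RBP-J KO, 1 lower CPM row in each knockout comparison, and 1 and 4 lower RPKM rows for TNF in WT and in RBP-J KO. A pseudocount of 5 gave 0 higher CPM rows for TNF in RBP-J KO and 1 lower for the knockout with TNF.

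Fitted directions reversed for miR-466p with TNF in WT (0.0968 with median-of-ratios scaling, 0.206 with edgeR, 0.126 with DESeq2, and -0.571 to 0.261 when 1 library was left out). Leaving out 1 library also gave -1.45 to 0.0158 for miR-466h with TNF in WT, and in the unstimulated knockout -0.648 to 0.184 for miR-466p and -1.04 to 0.159 for miR-669c; each highest value came without the CPM library of unstimulated WT. The cause was not tested. Ratios of pooled member reads were also computed under settings chosen after seeing the data. Per library total, the RPKM ratios were 0.859, 0.576, 0.841 and 0.564, and without miR-467c and miR-467d they were 0.533, 0.389, 1.09 and 0.799, so the unstimulated knockout ratio crossed 1. The CPM ratios were 0.39, 0.887, 0.349 and 0.792 in the main setting. Without miR-467c and miR-467d they were 0.556, 0.707, 0.492 and 0.626. With identical rows each counted they were 0.509, 0.92, 0.417 and 0.752. Depth limits the CPM members, which rest on at most 19 reads a library.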
